A study of Mus musculus with 16 samples.

Results

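The subject is a set of 9 mouse genes that lie on the chromosomes of Hoxa11 and Hoxd11, the genes inactivated in this study's mutant, and that differed in signal between mutant and wild-type kidney mesenchyme. Zfp467, Tra2a, Kbtbd2, Lancl2 and Ndnf lie on chromosome 6 with Hoxa11, and Spc25, Metap1d, Frzb and Tmx2 lie on chromosome 2 with Hoxd11. They were chosen because 1 probe set of each passed a genome-wide test between the null and the wild-type captures in an earlier look at the same arrays, so that difference is given here as a description, with no test. All 9 lie within 100 protein-coding genes of Hoxa11 or Hoxd11. In the test used here 33 genes on the 2 chromosomes passed. The other 24 are not in the set, and of these only Hoxa11 lies that near. Nearness to a locus is thus part of the choice. The 9 genes are 9 of 18193 genes with a probe set of 1 symbol, and they carry 23 of 34945 such probe sets. Tra2a has 6 probe sets, Zfp467 and Lancl2 have 3 each, Kbtbd2 has 1, and Ndnf, Spc25, Metap1d, Frzb and Tmx2 have 2 each.

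Transcripts were measured in kidney rudiments of mouse embryos at E11.5 (the embryonic day) on 16 arrays. The mutant group was Hoxa11/Hoxd11 double null metanephric mesenchyme (MM, the tissue that forms nephrons and stroma), cut by laser capture from frozen sections of urogenital ridges (n = 5). Its comparison group was wild-type MM cut the same way from sections of kidney rudiments, with 3 to 4 mesenchymes pooled per sample (n = 4). The other wild-type groups were parted by hand after collagenase: ureteric bud (UB, the epithelium that branches into collecting ducts; n = 4, with 3 to 9 buds pooled) and MM from single mesenchymes (n = 3, numbered 5 to 7). The series text calls the replicates separate embryos. Source piece differs together with genotype between the captures, and pooling is not stated for the null captures. Neither can be told apart from genotype. The sources used here name neither the strain, nor the litters, nor how the alleles were made. In these bulk samples, fewer cells of a type and less RNA per cell cannot be told apart.

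A gene that sits near a targeted locus is inherited together with it. When a mutation made in 1 strain is bred into another, the DNA around the locus can stay that of the first strain, and a neighbouring gene may then differ in its sequence or in its regulation without being a target of the deleted factor. On a short-oligonucleotide array a sequence difference can weaken a probe set that covers it while the gene's other probe sets keep their signal, which is why probe sets of the same gene were set against each other. Strain sequences and probe positions were not used here, so any linked sequence difference was not tested.

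The deposited values are MAS5 signals on a linear scale, and differences are on the scale of log2(signal + 36.3), tested with limma over all kept probe sets with Benjamini-Hochberg adjustment at 0.05. The array medians ran from 113 to 209. Null replicate 1 stood apart: its median correlation with the other arrays of its group was 0.896, against 0.928 to 0.933 for null replicates 2 to 5. Hoxa11 itself averaged 124 ± 44.5 in the null captures and 709 ± 147 in the wild-type captures (SD, n = 5 and 4). Hoxd11, read by a probe set whose place relative to the mutated part was not checked, averaged 341 ± 121 and 435 ± 115 in the same groups. The summed signal of 7 ureteric bud markers ran from 4620 to 18791 in the null captures and from 7063 to 36865 in the wild-type captures, and that of 4 macrophage markers, of which 1 passed the test as lower, from 1166 to 11985 and from 9115 to 19420. Nephron progenitor markers summed to 16016 in null replicate 4 and to 34469 or more in all other mesenchyme arrays. Gonad and coelomic markers (5 genes) summed to 16465 in null replicate 5, against 179 to 446 in the other null captures and 152 to 375 in the wild-type captures. Without null replicate 5 the log2 differences between null and wild-type captures were -1.02 for Zfp467, -0.78 for Tra2a, -1.08 for Kbtbd2, -1.47 for Lancl2, 3.17 for Ndnf, -1.56 for Spc25, 1.54 for Metap1d, 2.51 for Frzb and 0.87 for Tmx2. Of the 9 genes 5 then passed the threshold. Their directions could not change, since no null array overlapped the wild-type captures on these probe sets.

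In the null captures 4 of the genes were higher than in the wild-type captures (Ndnf, Frzb, Metap1d and Tmx2) and 5 were lower (Zfp467, Tra2a, Kbtbd2, Lancl2 and Spc25). Of the 23 probe sets, 13 passed the filter on dim signals in that comparison and 9 were called, 1 per gene, where 1.76% of 23387 tested probe sets were called, 0.59% as higher and 1.17% as lower. In 11 of the 13 the null arrays were clear of the wild-type captures, beside 8.82% of all tested probe sets. The rule used these same values, so nothing is read from either count.

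**Figure D1:**
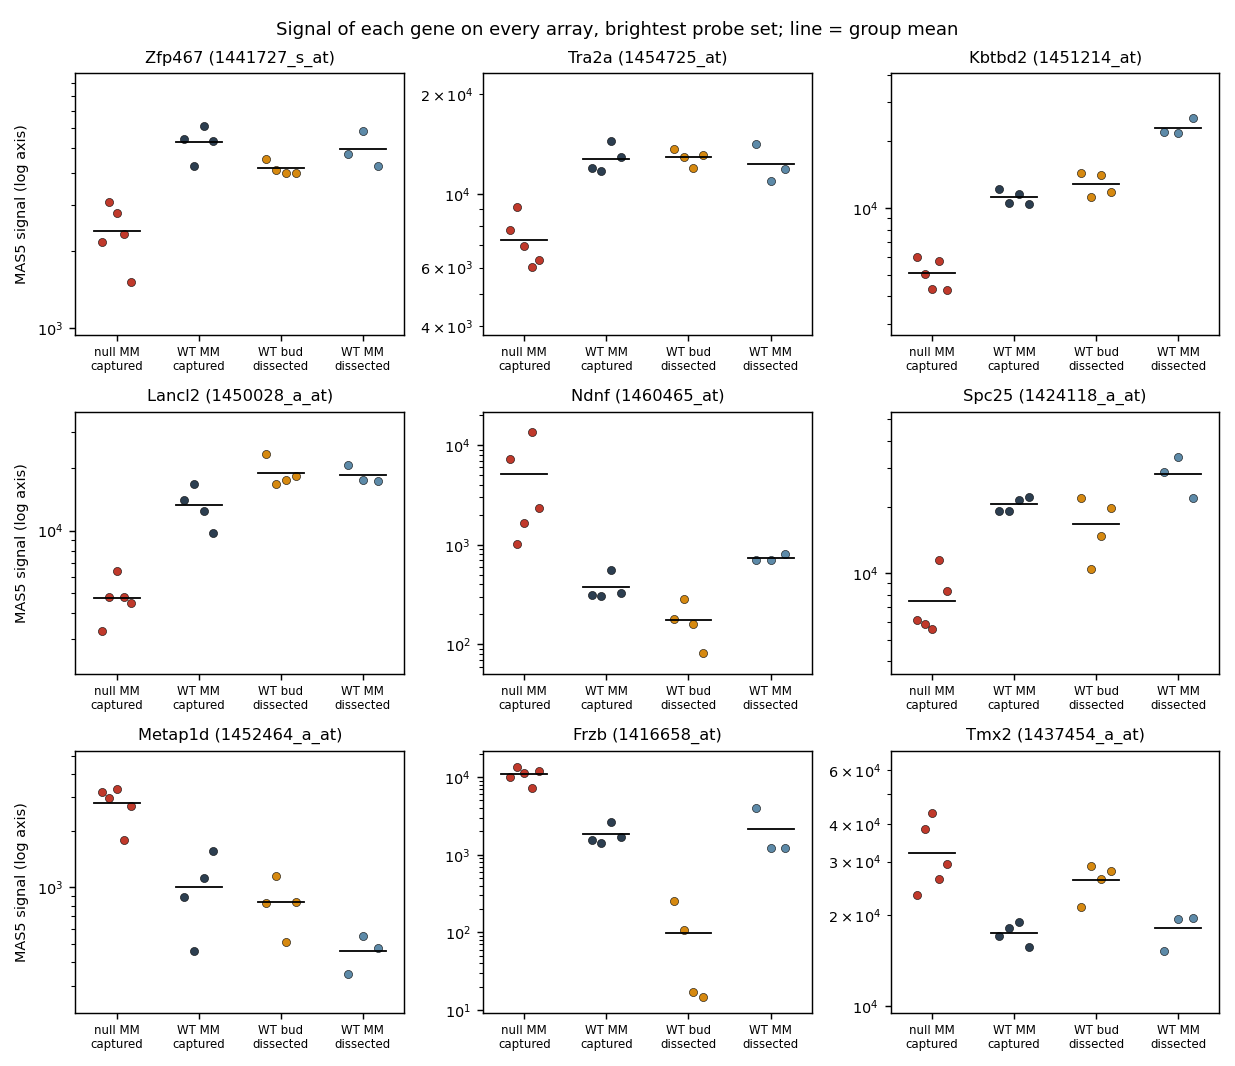
MAS5 signal (log axis) of the brightest probe set of each of the 9 genes on every array, with the group mean as a line; the columns are null MM captured (n = 5), wild-type MM captured (n = 4), wild-type bud dissected (n = 4) and wild-type MM dissected (n = 3). All null arrays lie below all 7 wild-type mesenchyme arrays for Zfp467, Tra2a, Kbtbd2, Lancl2 and Spc25 and above them for Ndnf, Metap1d, Frzb and Tmx2.

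Promoter sequences are shown for the genes whose difference passed the threshold under the most of 19 alternative settings: Frzb and Spc25 under all 19 and Kbtbd2 under 18. The same contrast chose the genes, so these counts only pick which sequences to show, and nothing is read from them. Each runs from 250 bases before to 50 bases after the start site, 5′ to 3′ on the gene's own strand, as given by RefSeq for GRCm38.p6. Capitals mark a match to TTTACG or TTTATG, or to their reverse complements CGTAAA and CATAAA, which are letters that Hox proteins of the Abdominal-B type are known to bind.
Frzb, chr2:80447347-80447646, minus strand: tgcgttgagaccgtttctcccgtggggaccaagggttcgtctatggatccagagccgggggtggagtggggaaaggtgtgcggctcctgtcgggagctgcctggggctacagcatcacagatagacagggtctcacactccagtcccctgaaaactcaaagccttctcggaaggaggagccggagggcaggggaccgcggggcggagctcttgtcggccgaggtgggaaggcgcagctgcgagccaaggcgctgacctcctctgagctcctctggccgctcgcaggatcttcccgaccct
Spc25, chr2:69206164-69206463, minus strand: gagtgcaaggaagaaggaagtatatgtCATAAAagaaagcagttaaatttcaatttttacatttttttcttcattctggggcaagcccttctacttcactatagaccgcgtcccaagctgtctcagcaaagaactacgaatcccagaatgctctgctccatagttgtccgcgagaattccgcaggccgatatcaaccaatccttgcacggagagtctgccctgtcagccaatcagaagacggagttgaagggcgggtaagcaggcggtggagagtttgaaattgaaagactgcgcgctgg
Kbtbd2, chr6:56797164-56797463, minus strand: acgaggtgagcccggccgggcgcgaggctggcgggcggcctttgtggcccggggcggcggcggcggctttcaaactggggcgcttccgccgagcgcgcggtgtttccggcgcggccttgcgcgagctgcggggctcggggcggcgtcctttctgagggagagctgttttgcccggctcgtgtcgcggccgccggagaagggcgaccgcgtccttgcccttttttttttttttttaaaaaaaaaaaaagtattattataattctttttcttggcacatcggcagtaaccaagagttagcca
Only the Spc25 stretch held a match, the letters CATAAA, 223 bases before the start. Of 32817 promoters of the same length, 3.03% held TTTACG, 11.9% held TTTATG and 14.6% held either, on either strand. Among the 9 genes, 7 had an entry in the table, with 8 promoters since Tmx2 had 2, and the other 7 promoters held no match in this window. The Frzb and Kbtbd2 stretches were rich in G and C, at 64.7% and 61.7%, and held 20 and 37 CpG pairs, where the median promoter held 52.7% and 7, while the Spc25 stretch had 47.3% and 13.

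Frzb encodes a secreted frizzled-related protein that binds Wnt ligands outside the cell and limits their signalling. Its brightest probe set, 1416658_at, read 9919, 13569, 11370.4, 7205 and 12101 in null replicates 1 to 5, against 1524, 1435, 2647 and 1678 in wild-type captures 1 to 4. Every null array stood above every wild-type capture, and the lowest null value came from replicate 4. The means were 10833 ± 2418 and 1821 ± 559.7 (SD, n = 5 and 4), a ratio of 5.95 and a log2 difference of 2.56 ± 0.24 SE. Without null replicate 1 the difference was 2.58, and over all alternatives it ran from 2.46 to 2.75. The second probe set, 1448424_at, was dimmer, at 450.4, 893, 616, 260.4 and 389 in the null captures and 162, 23.3, 184 and 109 in the wild-type captures. It exceeded its array's median on 5 of 5 null and 1 of 4 wild-type captures, so it entered the comparison through the group where it is high. Its groups did not overlap, with a log2 difference of 1.89 ± 0.48 SE, and nothing is read from that.

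In the dissected tissues, which the choice of genes did not use, Frzb was a mesenchymal transcript. The bud arrays read 252, 107, 17.2 and 14.8, against 3958, 1214 and 1219 in dissected MM replicates 5 to 7. Bud replicates 3 and 4 were near background, and MM replicate 5 was above the other MM arrays. The log2 difference was -4.16 ± 0.60 SE (limma, adjusted p = 0.000323), and the call held in all 14 alternatives that tested it. Its size depends on how the dim bud values are treated and on single arrays, and ran from -5.14 to -3.60 over these alternatives. Of 8 secreted Wnt antagonists tested in the captures, Frzb was called higher and no other passed, with a median difference of -0.26, beside 1.74% called and a median of -0.10 over all 12161 genes tested. Sfrp2, a relative of Frzb, read 36747 ± 8709 in the null captures and 19215 ± 6374 in the wild-type captures (SD, n = 5 and 4), a difference of 0.97 ± 0.24 SE that missed the threshold. Between UB and MM, Sfrp1 and Sfrp2 were lower in UB, as Frzb was, with log2 differences of -1.79 ± 0.34 and -2.09 ± 0.15 SE, and Dkk1, a Wnt co-receptor blocker, was higher by 2.56 ± 0.33 SE. In the captures Dkk1 differed against Frzb, at -1.64 ± 0.48 SE, and missed the threshold too.

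Ndnf encodes a secreted neuron-derived factor with fibronectin type III domains, known as a neurotrophic protein. Probe set 1460465_at read 7200.1, 1012, 1669.8, 13385 and 2362 in null replicates 1 to 5, against 316, 306, 555 and 332 in the wild-type captures. All null arrays were above all wild-type captures, but they spread widely, with replicates 1 and 4 far above replicates 2, 3 and 5. The means were 5126 ± 5221 and 377 ± 119 (SD, n = 5 and 4), so the SD of the null captures was as large as their mean. The log2 difference was 3.05 ± 0.65 SE, and it was 2.77 without null replicate 1 and 2.55 without null replicate 4.

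Markers of neurons and neural crest were highest in the null arrays with the most Ndnf. Their summed signal over 8 genes was 28387, 10590, 4578, 34336 and 3895 in null replicates 1 to 5, against 2570.2, 3714, 2903 and 6152 in wild-type captures 1 to 4. It was highest in replicates 1 and 4. Among the other null arrays it did not follow Ndnf: replicate 2, with the least Ndnf, had the highest sum of them, and replicates 3 and 5 were within the range of the wild-type captures. Of the 7 markers tested, Ina and Rtn1 were called higher and none lower, beside 1.74% of all 12161 genes called in either direction. Ina, a neuronal intermediate filament, lay below its array's median on every wild-type capture and above it on all 5 null captures. It thus entered the test through the group where it is high, and nothing is read from its call. Muscle and somite markers summed to 35844 in null replicate 4, where the other null arrays ran from 2829 to 5972. The part of these cells in the Ndnf difference was not tested.

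Ndnf separated the dissected tissues in the mesenchymal direction as well. The bud arrays read 179, 286, 161 and 81.5, against 699.6, 709 and 814 in dissected MM, so the groups did not overlap. The log2 difference was -1.95 ± 0.32 SE (limma, adjusted p = 0.000793), and the mean was 4.19-fold lower in UB. Neuronal markers summed to between 1710 and 2147 in UB and between 2522 and 3220 in MM. In the list of FGF-signal genes that holds Ndnf, Ndnf was called in the null captures and no other of the 7 passed. Between UB and MM, Spry1 and Spry2, inhibitors of receptor tyrosine kinase signalling, were higher in UB by 2.31 ± 0.17 and 1.43 ± 0.21 SE.

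Zfp467 encodes a zinc finger transcription factor that in mouse marrow stromal cells favours the fat over the bone lineage. Its brightest probe set, 1441727_s_at, read 2170.4, 3086, 2801, 2325 and 1507 in the null captures and 5457, 4265, 6131 and 5339 in the wild-type captures. No null array reached the lowest wild-type capture, and null replicate 5 was the lowest of all. Means were 2378 ± 609 and 5298 ± 772 (SD, n = 5 and 4), a log2 difference of -1.17 ± 0.23 SE, or -1.15 without null replicate 1. Probe set 1419564_at read 1043, 1428, 1354, 1233 and 645 in the null captures, against 1359, 1995, 2549.5 and 2178 in the wild-type captures. These overlapped, since null replicate 2 was above wild-type capture 1, and the difference was -0.82 ± 0.29 SE. The dimmest, 1449510_at, read 1466, 265, 570, 609.7 and 361 and 855, 791, 533 and 458 in the same groups, with null replicate 1 above and null replicate 2 below all other arrays of both. Its difference of -0.20 ± 0.45 SE was smaller than its error.

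Between the dissected tissues the probe sets of Zfp467 gave unlike values. On 1441727_s_at the bud arrays read 4564, 4127, 4009.6 and 4021, against 4752, 5857 and 4266 in MM, and they overlapped (log2 difference -0.23 ± 0.19 SE, 95% interval -0.65 to 0.18, limma adjusted p = 0.41). On 1419564_at they read 2928, 1525, 1643 and 1399, against 3208, 3961 and 3068 in MM, with all buds below all MM arrays. That difference of -0.91 ± 0.27 SE passed the threshold (limma, adjusted p = 0.0301). The call was lost without any of bud replicates 2, 3 and 4 and MM replicates 5, 6 and 7, with adjusted p between 0.0544 and 0.106 there. On 1449510_at the difference ran the other way, at 0.48 ± 0.23 SE, and did not pass (limma, adjusted p = 0.16).

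Tra2a encodes a splicing factor that binds exonic enhancers together with SR proteins. Probe set 1454725_at read 7788, 9161, 6959, 6019.6 and 6302 in null replicates 1 to 5, against 11949, 11731, 14432 and 12915 in the wild-type captures. The groups did not overlap, and each was narrow, with means of 7246 ± 1269 and 12757 ± 1229.9 (SD, n = 5 and 4). The log2 difference was -0.82 ± 0.16 SE, and -0.85 without null replicate 1. Buds and dissected MM read 13658, 12878, 11953 and 13076 and 14176, 10962 and 11899.9. These differed by 0.07 ± 0.15 SE (limma, adjusted p = 0.781), with a 95% interval from -0.26 to 0.40. Every wild-type array of every tissue lay above the highest null array.

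Tra2a belongs to a family of related splicing factors. Of 11 genes of the SR and Tra2 type, Tra2a was called lower in the null captures and no other passed, and the median difference was -0.06. Its close relative Tra2b, which binds the same kind of enhancer, read 32150 ± 3141 in the null captures and 31183 ± 2225 in the wild-type captures (SD, n = 5 and 4), a difference of 0.04 ± 0.11 SE. Srsf10, a splicing repressor, came nearest, at -0.91 ± 0.22 SE, and did not pass. The other 5 probe sets of Tra2a were dim and entered neither comparison, with group means of 266 or less in the null captures and 86.4 or less in the wild-type captures, and in each of them the 2 groups overlapped.

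Spc25 encodes a subunit of the Ndc80 complex, which ties kinetochores to spindle microtubules when cells divide. Probe set 1424118_a_at read 6164, 5881, 5599, 11446 and 8284 in the null captures, against 19157, 19253, 21620.3 and 22108 in the wild-type captures. Null replicate 4, the highest of its group, was still below every wild-type capture. The means were 7475 ± 2459.9 and 20535 ± 1548 (SD, n = 5 and 4), 2.75-fold lower in the null captures. The log2 difference was -1.51 ± 0.21 SE, and -1.45 without null replicate 1. A second probe set, 1453815_at, was dim, at 175, 83, 72.3, 105 and 71.4 in the null captures and 107, 178, 136 and 182 in the wild-type captures, and did not enter that comparison. Its groups overlapped, since null replicate 1 was above wild-type captures 1 and 3.

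The other kinetochore genes stayed short of the threshold. Among 10 kinetochore genes, Spc25 was called lower in the null captures and no other passed, with a median difference of 0.07. Ndc80 and Spc24, its direct partners in the complex, differed by 0.07 ± 0.29 and 0.15 ± 0.37 SE, and Nuf2, the other partner, by 0.61 ± 0.37 SE. Dsn1, another gene of the list, was lower by value like Spc25, at -0.69 ± 0.24 SE. In the dissected tissues Spc25 read 21924, 10473, 14787 and 19778 in UB, against 28749, 33699 and 21967 in MM. The buds lay below all MM arrays, narrowly, and the difference of -0.78 ± 0.24 SE passed the threshold (limma, adjusted p = 0.035). It no longer passed without bud replicate 2 or 3 or MM replicate 5 or 6, where the adjusted p ran from 0.0739 to 0.127. Zwint, another kinetochore gene, was lower in UB too (-0.57 ± 0.16 SE, limma adjusted p = 0.0206).

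Kbtbd2 encodes an adaptor of the Cul3 ubiquitin ligase that in mouse marks p85α, a regulatory subunit of PI3 kinase in insulin signalling, for degradation. Its only probe set, 1451214_at, read 6048, 5071, 4334, 5751 and 4294 in null replicates 1 to 5, against 12152, 10579, 11559 and 10456 in the wild-type captures. A wide space separated the groups, with means of 5099.6 ± 800.0 and 11187 ± 811 (SD, n = 5 and 4). The log2 difference was -1.14 ± 0.16 SE, and -1.20 without null replicate 1. With 1 probe set, no agreement between probe sets could be examined for this gene.

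Among the wild-type tissues Kbtbd2 was also lower in UB than in MM. The bud arrays read 14419.8, 11258, 14171 and 11803, against 21971, 21762 and 25368 in dissected MM, with no overlap. The difference was -0.84 ± 0.15 SE (limma, adjusted p = 0.00151), and it passed in all 15 alternatives. Wild-type captured MM stood below dissected MM, with a ratio of means of 0.486, and method and pooling differ together between these groups. Of 8 genes of the Cul3 ligase and PI3 kinase list, Kbtbd2 was called lower in the null captures and no other passed, with a median of -0.21. Rbx1, of the same list, fell more by value (-2.07 ± 0.51 SE) and missed the threshold. It was dim, at 40.4 ± 58.1 in the null captures and 250.5 ± 98.4 in the wild-type captures (SD, n = 5 and 4). Pik3r1, which encodes p85α, read 586 ± 223 in the null captures and 879 ± 400 in the wild-type captures (SD, n = 5 and 4), a difference of -0.54 ± 0.37 SE. Between UB and MM, Pik3r1 and the insulin receptor substrate Irs1 were lower in UB, with differences of -1.92 ± 0.26 and -1.43 ± 0.43 SE.

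Lancl2 encodes a LanC-like protein, a mammalian relative of the bacterial cyclases that build lantibiotic peptides. Probe set 1450028_a_at read 3274, 4798, 6374, 4779 and 4479 in the null captures, against 14081, 16682, 12490.3 and 9768 in the wild-type captures. The lowest wild-type capture, replicate 4, was above the highest null capture, replicate 3. Means were 4741 ± 1106 and 13255 ± 2896 (SD, n = 5 and 4), and the log2 difference was -1.48 ± 0.22 SE, or -1.36 without null replicate 1. UB and dissected MM read 23253, 16733, 17554 and 18367 and 20725, 17588 and 17389, all above the captures. They differed by 0.02 ± 0.15 SE (limma, adjusted p = 0.928; 95% interval -0.31 to 0.36). Lancl1, the relative of Lancl2 with a measured signal, read 13385 ± 1279 in the null captures and 11980 ± 2129 in the wild-type captures (SD, n = 5 and 4), a difference of 0.17 ± 0.15 SE.

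Metap1d encodes a mitochondrial methionine aminopeptidase, which removes the first methionine from new proteins. Probe set 1452464_a_at read 3222, 2978, 3314, 1788 and 2693 in null replicates 1 to 5, against 886, 458, 1114 and 1562 in the wild-type captures. The groups came close, since null replicate 4 was just above wild-type capture 4. The means were 2799 ± 614 and 1005 ± 460.1 (SD, n = 5 and 4), and the log2 difference was 1.53 ± 0.34 SE, or 1.48 without null replicate 1. Buds read 827, 1150.3, 512 and 838, against 346, 550.5 and 475 in dissected MM. They overlapped, and the difference of 0.79 ± 0.28 SE (95% interval 0.16 to 1.41) missed the threshold (limma, adjusted p = 0.0666), except without bud replicate 3, where it was 0.99 (adjusted p = 0.0303). The cytosolic enzymes Metap1 and Metap2 differed by 0.03 ± 0.20 and 0.06 ± 0.12 SE between null and wild-type captures.

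Tmx2 encodes a thioredoxin-related transmembrane protein of the endoplasmic reticulum. Its brighter probe set, 1437454_a_at, read 23236, 38384, 43472, 26236 and 29434 in the null captures and 17106, 18100.2, 18941 and 15639.9 in the wild-type captures. The null captures were all above the wild-type captures, with replicate 1 the nearest to them. Means were 32152 ± 8498 and 17447 ± 1419 (SD, n = 5 and 4), a log2 difference of 0.84 ± 0.18 SE, or 0.95 without null replicate 1. The second probe set, 1452130_at, read 6515, 11186, 10743, 7528 and 5890.2, against 5276, 5182, 5834 and 4121. It kept the groups apart by a thin margin, with null replicate 5 just above wild-type capture 3, and differed by 0.67 ± 0.22 SE.

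Tmx2 was higher in UB than in dissected MM, and no other of the 9 genes was called in that direction. On 1437454_a_at the buds read 21267, 28955, 26377 and 28032, against 15246, 19343 and 19560 in MM. All buds were above all MM arrays, and the difference of 0.53 ± 0.15 SE passed (limma, adjusted p = 0.0246). Without bud replicate 2, 3 or 4 or MM replicate 5 it missed the threshold, with adjusted p of 0.0691, 0.0684, 0.0620 and 0.1005. The second probe set gave 0.64 ± 0.24 SE and did not pass (limma, adjusted p = 0.0749), except without bud replicate 1, where it was 0.77 (adjusted p = 0.0211). In the list of 4 Tmx proteins Tmx2 was called in the null captures and no other passed. Tmx4, a relative, was 0.61 ± 0.19 SE higher in the null captures by value and missed the threshold, while Tmx1 and Tmx3 differed by 0.15 ± 0.20 and -0.43 ± 0.24 SE.

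Over the 9 genes, 5 differed between UB and dissected MM by their brightest probe set, where 28.5% of 12435 genes did. Of the 14 probe sets tested there, 6 were called, beside 23.9% of 23851, with 1 higher in UB and 5 lower, beside 12.4% higher and 2749 lower of all tested. The groups did not overlap in 7, beside 32.1%. Ndnf and Kbtbd2 were called lower in UB, as were Frzb, Spc25 and probe set 1419564_at of Zfp467. These tissues differed widely as a whole: 7 ureteric bud markers summed to between 119898 and 148554 in UB and between 1192 and 1675 in MM. The 3′ to 5′ signal ratio of Gapdh, which falls as RNA or its copies keep their full length, ran from 6.53 to 12.2 in UB and from 22.1 to 69.3 in dissected MM, against 18.4 to 26.3 in null captures and 14.3 to 22.9 in wild-type ones. The same ratio of Actb overlapped between the dissected tissues, at 10.9 to 16.3 in UB and 11.1 to 17.9 in MM, and ran from 17.5 to 27.6 in null captures and from 14.8 to 20.9 in wild-type ones. Their part in any probe set's difference was not tested.

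**Figure D2:**
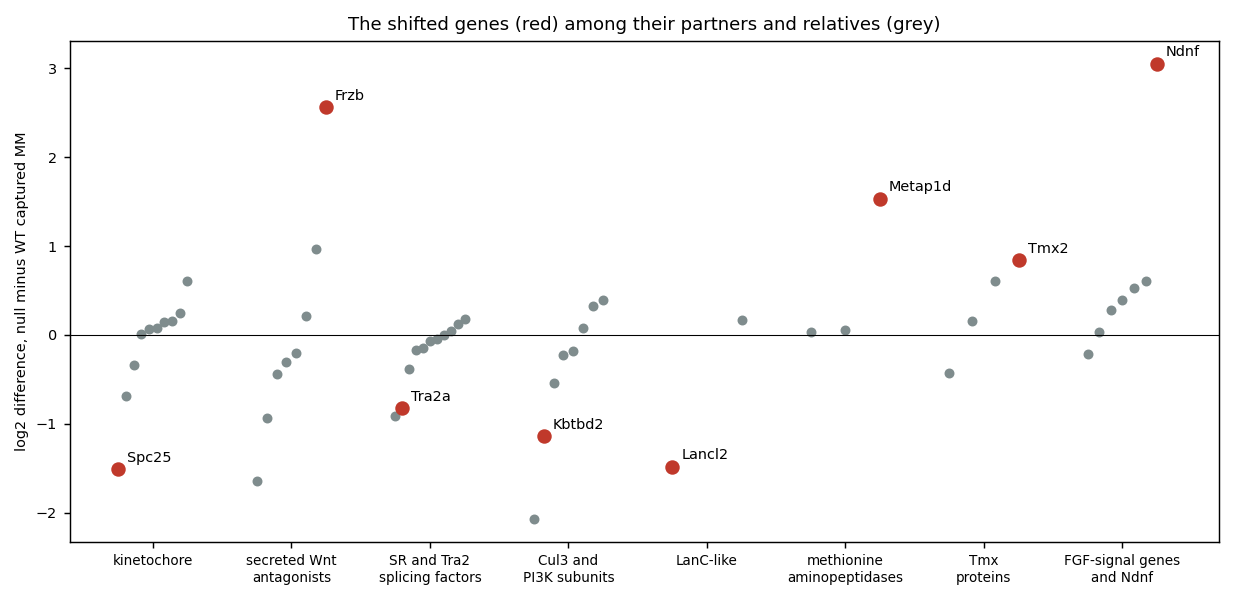
Log2 difference in signal, null minus wild-type captured MM, of each tested gene in 8 lists of partners and relatives; red points are the 9 genes' members of each list and grey points all others. In the kinetochore, Wnt antagonist, splicing factor and Cul3 lists the called genes were the red ones only, at -1.51, 2.56, -0.82 and -1.14.

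Agreement between probe sets was examined as the within-array log2 gap, the other probe set minus the brightest, compared between groups. A gene picked through 1 shifted probe set tends to show a gap, so a gap in the captures is not independent evidence. In the captures 4 pairs from 3 genes could be tested, and limma called 0 of the 4, beside 1.08% of 8157 pairs in all genes. At an unadjusted limma p below 0.05 there were 0 of the 4 as well. For Tmx2 the second probe set's difference was -0.17 ± 0.18 SE from the brightest one's, with a 95% interval from -0.58 to 0.23. For Frzb it was -0.67 ± 0.34 SE, from -1.45 to 0.11, and both probe sets were higher in every null array. Zfp467 gave 0.35 ± 0.21 SE for 1419564_at (-0.13 to 0.84) and 0.97 ± 0.51 SE for 1449510_at (-0.18 to 2.13). The intervals are wide, and missing the threshold does not show that the probe sets moved alike.

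On the dissected arrays, which the choice did not use, 5 pairs from 4 genes could be tested. None of the 5 was called by limma, beside 5.28% of 8461 pairs called. By unadjusted limma p, 2 of the 5 were below 0.05, a level at which the share of all pairs was not counted. These 2 pairs were from Zfp467, where the gap changed by -0.67 ± 0.24 SE for 1419564_at (adjusted p = 0.146) and by 0.71 ± 0.21 SE for 1449510_at (adjusted p = 0.0896). In both the bud and MM arrays did not overlap, which held for 20.8% of all pairs. Without bud replicate 1 both passed, at -0.86 (adjusted p = 0.0206) and 0.79 (adjusted p = 0.0417). The changes for Lancl2, Tmx2 and Spc25 were -0.04 ± 0.39, 0.11 ± 0.20 and 0.15 ± 0.38 SE. Both tissues are wild type, and what these gaps come from was not tested.

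**Figure D3:**
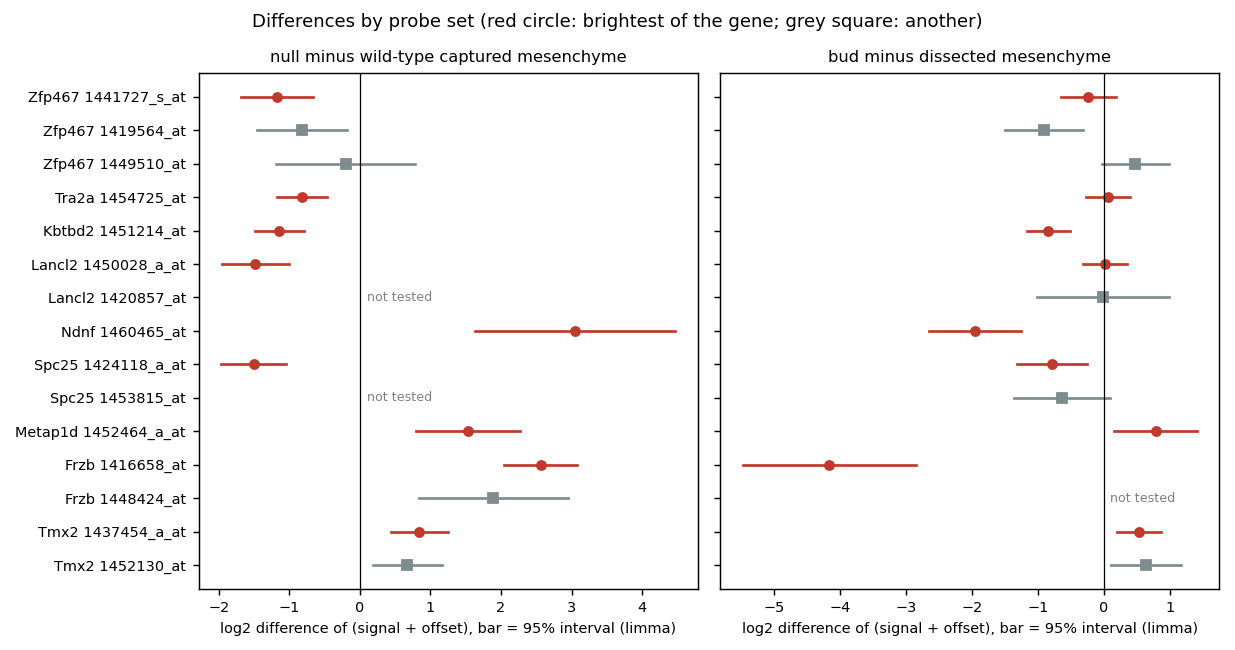
Log2 difference and 95% interval (limma) of every tested probe set of the 9 genes, null minus wild-type captured MM on the left and UB minus dissected MM on the right; red circles are each gene's brightest probe set and grey squares the others. The pairs of Tmx2 and Frzb lie on the same side of 0 in the captures, while 1449510_at of Zfp467 lies near 0 at -0.20. In the captures the second probe set of Frzb entered through the group where it is high, so nothing is read from its side.

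Across arrays the correlations of probe sets of a gene are a description, over 16 arrays of 4 groups that share their group differences. Frzb's probe sets correlated at Pearson r = 0.908 and those of Tmx2 at 0.858. Within the 7 dissected arrays alone these were 0.973 and 0.968. The dim 1420857_at of Lancl2 also gave 0.973 there, but 0.282 over the 16 arrays. It gave -0.429 over the 9 captures, where it was too dim to be tested. For Zfp467, 1419564_at followed the brightest probe set at 0.811 and 1449510_at at -0.0709, and in the dissected arrays at 0.822 and -0.286. Spc25's dim probe set gave 0.597.

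The remaining 8 probe sets, of Tra2a (5), Lancl2, Ndnf and Metap1d (1 each), passed the filter in neither comparison. Their signals ran from 0.5 to 890 with a median of 28.6. Lancl2's 1420857_at entered the dissected comparison only, where it read 457, 77.3, 140 and 174 in UB, against 296, 163 and 116 in MM, overlapped, and differed by -0.02 ± 0.46 SE (limma, adjusted p = 0.985). No second probe set of Tra2a, Lancl2, Ndnf, Spc25 or Metap1d was bright enough to be tested between null and wild-type captures.

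Hand-dissected wild-type MM gave a second set of wild-type levels, although taken by another method. For all 9 genes the 5 null arrays lay outside the range of all 7 wild-type mesenchyme arrays on the brightest probe set. By probe set this held for 10 of 13, beside 4.45% of all tested probe sets, and since the null and captured arrays chose the genes, nothing is read from these counts. The exceptions were 1419564_at and 1449510_at of Zfp467 and 1452130_at of Tmx2. The ratio of wild-type captured to wild-type dissected means was near 1 for Tmx2 (0.967), Tra2a (1.03) and Zfp467 (1.07), and farther from it for Frzb (0.855), Spc25 (0.73), Lancl2 (0.714), Ndnf (0.509), Kbtbd2 (0.486) and Metap1d (2.2). For Kbtbd2, Lancl2, Spc25 and Metap1d the dissected wild-type mean lay farther from the null mean than the captured wild-type mean did.

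Along the chromosomes, counted in protein-coding genes of the RefSeq order (GRCm38.p6), Zfp467 lies 52 and Tra2a 26 genes before Hoxa11, and Kbtbd2 lies 32, Lancl2 56 and Ndnf 84 genes after it. On chromosome 2, Spc25 lies 50 and Metap1d 23 genes before Hoxd11, and Frzb lies 38 and Tmx2 53 genes after it. Within 100 genes of either locus these 9 and Hoxa11 were the called genes. The set is bounded by that distance, so nothing is read from the genes lying there. Of 33 called genes on the 2 chromosomes, the other 24 include Hoxa11 and 6 lie within 300 genes, counting Hoxa11, among them Reep1, 118 genes after it, and D630045J12Rik, 167 genes before it.

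The share of tested genes called was not even along the order, which is a description since the genes were chosen by these calls and this region. Up to 25 genes from a locus, 2 of 75 tested genes (2.67%) were called, and from 26 to 100 genes away 8 of 126 (6.35%). Beyond 100 and up to 300 genes away the count was 5 of 354 (1.41%), farther on the same chromosomes 18 of 979 (1.84%), and on all other chromosomes 174 of 10196 (1.71%). Without null replicate 1 the calls grew everywhere, to 8.11%, 12.0%, 6.80% and 6.33% in the same order and 6.85% on the other chromosomes. The genes nearest to the threshold on these chromosomes were Metap1d and 2610001J05Rik (-0.67 ± 0.15 SE) inside it and Kdm3a (0.58 ± 0.13 SE) and Mtpn (-0.90 ± 0.20 SE) outside.

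**Figure D4:**
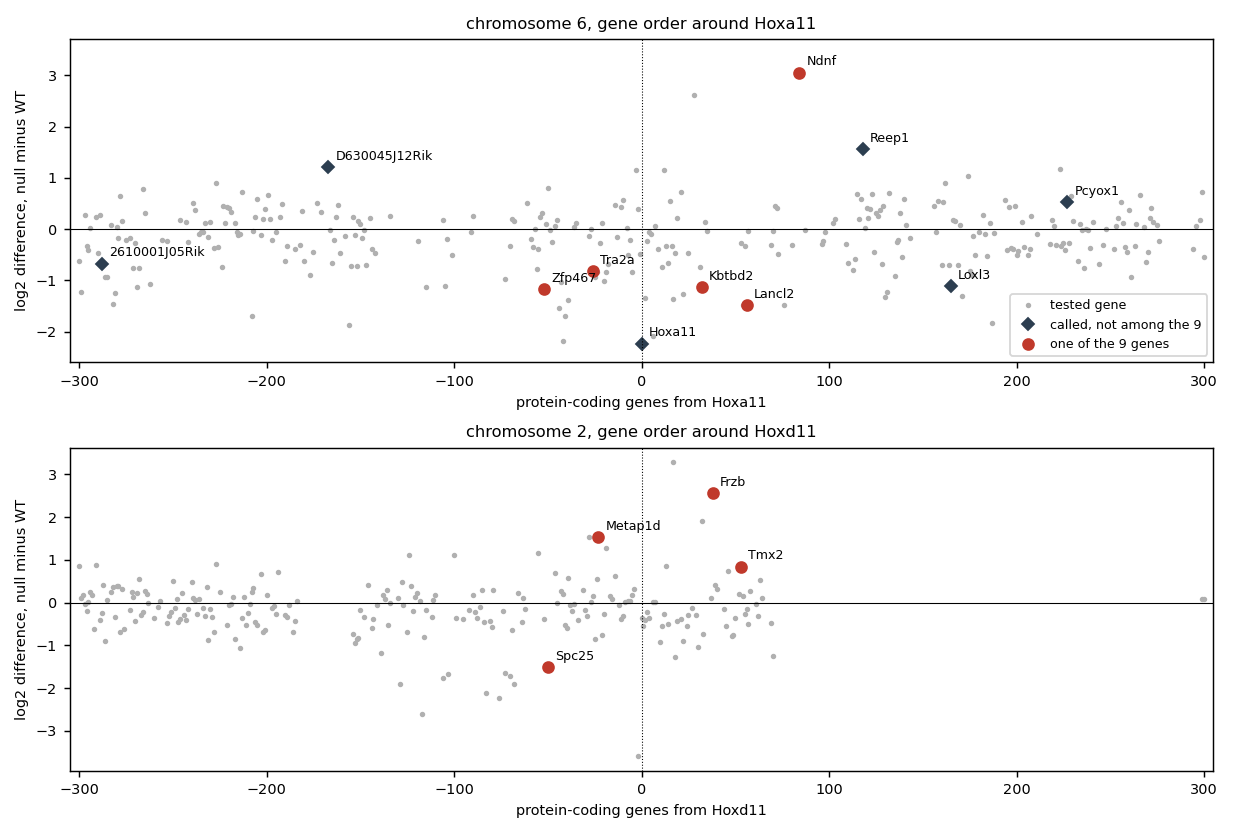
Log2 difference, null minus wild-type captured MM, of every tested gene within 300 protein-coding genes of Hoxa11 (above) and Hoxd11 (below), in gene order; red circles are the 9 genes, dark diamonds other called genes and grey points genes not called. Called genes within 100 genes of a locus lie on both sides of 0, from -2.23 (Hoxa11) to 3.05 (Ndnf).

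The genes next to the 9 varied in both directions. The 3 nearest tested genes on each side of each gene gave 53 different neighbours, since Ppm1k stands between Kbtbd2 and Lancl2. None was called by limma, which the choice of the 9 fixes, and 11 had an unadjusted p below 0.05. The share of all genes below that level was not counted, so nothing is read from the 11. Their differences ran from -1.51 to 2.62 with a median of -0.14, beside a median of -0.10 over all genes. Groups did not overlap for 5 of them, beside 923 of 10196 genes (9.05%) on all other chromosomes, so the neighbours were near the background in this. Of the 5, Avl9, next to Kbtbd2, was lower by value like it (-0.73 ± 0.22 SE), and G6pc2, next to Spc25, likewise (-1.51 ± 0.39 SE), at 228 in the null captures, against 667 in the wild-type ones. Slc25a12, 2 genes from Metap1d, differed against it (-0.84 ± 0.31 SE), Dync1i2 by 0.15 ± 0.12 SE, and Tfpi near Tmx2 by -0.75 ± 0.26 SE.

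Differences over 1 in size were found for 7 neighbours, none of which passed. The share of all genes with such a size was not counted, so nothing is read from their number. The 7 were Ppp1r17 (2.62 ± 0.72 SE), Neurod1 (1.91 ± 0.76 SE), Pdk1 (1.29 ± 0.43 SE) and Stk39 (1.17 ± 0.32 SE) on the higher side, and G6pc2, Herc6 (-1.49 ± 0.69 SE) and Mmrn1 (-1.49 ± 0.54 SE) on the lower. Neurod1, a neuronal transcription factor 6 genes from Frzb, averaged 514.5 in the null captures and 55.9 in the wild-type captures. Ppp1r17, 4 genes from Kbtbd2, averaged 1681 in the null captures and 147 in the wild-type captures. The neighbours of Ndnf, from Tigd2 to Gadd45a, differed by between -1.49 and -0.01.

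The gene most like each of the 9 over the 16 arrays, by Pearson r on the log2 scale, lay on other chromosomes than its own. These r are descriptions over arrays that share group differences and a scaling. Kbtbd2 was closest to Fbxo11 (0.97) and Lancl2 to Pigl (0.97), with Frzb next, to Fzd2 (0.962), which encodes a frizzled receptor for Wnt. Ndnf was closest to Garem2 (0.948), Metap1d to Slc38a2 (0.938) and Tra2a to Rasa1 (0.936). Spc25 was closest to Tgs1 (0.91), Tmx2 to Tspan31 (0.899) and Zfp467 to Gfap (0.892), which was dim in all groups. Reep1, which stands on chromosome 6 and was called higher in the null captures by 1.56 ± 0.32 SE, was second for Frzb (0.951).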

How the data were processed

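RNA from 16 samples was amplified in 2 rounds and hybridised to Affymetrix mouse arrays, 1 array per sample, per the labels' protocols. The deposited values are linear intensities, made by the authors with MAS5 per the submitters' processing notes (version not given in the sources used here), and the trimmed mean of every array, without 2% of the values per tail, was 1500. Arrays give no read depth; their number limits the precision. After removal of 64 control probe sets, log2(signal + 36.3) was taken, where 36.3 is the 25th percentile. Probe sets had to exceed the median of their array in at least the number of arrays in the smaller group. The comparisons used limma 3.58.1 (R 4.3.3; lmFit, eBayes with trend), adjusted over all kept probe sets at 0.05, and probe-set gaps likewise without trend. The brightest probe set has the highest mean over the 16 arrays. The 9 genes and all lists were chosen with earlier results of these data known. Named were all probe sets of the 9 genes, called genes and neighbours on both chromosomes, list members past the threshold or central to a list, and the genes most like each of the 9. Names came from the platform annotation, and order from RefSeq (GRCm38.p6; 16465 of 18193 genes placed). The fits were tested on simulated data. Figures used Python 3.11.15 and matplotlib 3.10.9.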

Additional observations from a re-analysis of the deposited data

Results flagged for a closer look

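Single arrays stood far from the others of their group in 11 of 69 groups of 4 or 5 arrays examined over the 23 probe sets. Chance gives about 1 in 20 for normally distributed values. The rule was applied to linear signals, many of them dim, for which that rate was not checked. Null replicate 1 was the highest of its group in 4 of the 11: at 1466 on 1449510_at of Zfp467, where the next value was 610, and at 890, 410 and 86.4 on the dim Tra2a probe sets 1429680_at, 1439043_at and 1459753_x_at. The same array had the highest median signal of all and the lowest correlation with its group. Null replicate 2 stood out at 378 on 1453517_at of Metap1d. Among wild-type captures, replicate 3 was highest for Ndnf at 555, above 332 in the next, and replicate 2 for 1420857_at of Lancl2 at 126. In the buds, replicate 1 was highest on 1419564_at of Zfp467 at 2928, where the next was 1643, replicate 3 on 1429680_at of Tra2a at 189, and replicate 4 on 1439043_at of Tra2a at 59.8. Bud replicate 3 was lowest on 1453815_at of Spc25, at 71.9.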

How the results depend on the processing

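All 9 genes kept their direction between null and wild-type captures in all 19 alternatives. On their brightest probe sets no null array overlapped the wild-type captures, so leaving out an array could not reverse a direction. This contrast chose the genes, so nothing is read from that or from the passes counted next. Frzb and Spc25 passed the threshold in 19 alternatives, Kbtbd2 in 18, Lancl2 in 17, Zfp467 in 11, Ndnf in 10, Tra2a in 9, and Metap1d and Tmx2 in 7. The genes passing numbered 9, 7, 4, 9 and 5 without null replicates 1 to 5, and 4, 3, 4 and 4 without wild-type captures 1 to 4. Over all probe sets 411 were called (138 higher, 273 lower), against 258 with centring on the array median (148 higher, 110 lower), 256 with no filter, 215 with no intensity trend and 1538 with all 7 wild-type mesenchyme arrays, and from 60 to 1809 with single arrays left out, highest without null replicate 1. The median difference over all probe sets was -0.15, and 0.01 after centring. No label says that replicate numbers pair embryos, and same-numbered null and wild-type captures correlated in their deviations at between -0.05 and 0.07; with the replicate number as a block 54 probe sets were called, of the 9 genes Frzb and Spc25, and 0 gaps. The 88 gaps called in the captures became 54 with no filter and 29 to 303 with single arrays left out. Between UB and MM, 5701 probe sets were called, and 3752 with the filter in every array. Of the 9 genes 5 were called there, 3 with no filter and with no trend, and 3 to 5 with single arrays left out. With the filter in every array 3 were called, but Frzb and Ndnf were not tested there, since bud arrays fell below the median. The 447 gaps called became 280 with an offset and 223 with a floor at the 10th percentile, 1251 with no filter and 172 to 1260 with single arrays left out.

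Values that changed sign were called in none of these settings. Between null and wild-type captures, 1449510_at of Zfp467 was 0.041 with quantile normalisation, 0.081 with all 7 wild-type arrays and from -0.54 to 0.043 with single arrays left out. Between UB and MM, 1420857_at of Lancl2 was 0.092 with quantile normalisation and ran from -0.42 to 0.30 with single arrays left out, its gap 0.037 and from -0.34 to 0.21. With centring, Tra2a was -0.023 and Lancl2 -0.067, and with single arrays left out they ran from -0.012 to 0.17 and from -0.077 to 0.11. The gap of Spc25 was -0.0021 with the floor and ran from -0.18 to 0.43 with single arrays left out, and that of Tmx2 from -0.025 to 0.18. The causes were not tested. Another background correction and slide or scan as a block could not be had from the deposited signals.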
